A study of Mus musculus with 6 samples.

Results

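The genes described here encode the respiratory chain and ATP synthase of mouse mitochondria. They are the protein-coding rows of the deposited table whose symbols start with Nduf, Uqcr, Atp5, Cox4 to Cox8, mt-Nd, mt-Co, mt-Cytb or mt-Atp, together with Sdha, Sdhb, Sdhc, Sdhd, Cyc1 and Cycs. This rule took 108 of 52459 rows, 95 genes of the nucleus and all 13 protein-coding genes of mitochondrial DNA, and used no measured value. A filter on low counts left 101 of them for testing, 89 nuclear and 12 mitochondrial. The 7 others were the tissue isoforms Cox4i2, Cox7a1, Cox7b2, Cox8b, Cox8c and Ndufa4l2 and the mitochondrial gene mt-Nd4l. Atp5s and Atp5sl matched the rule by name only, since their products are not parts of ATP synthase.

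The cells were megakaryocytic-erythroid progenitors (MEP), marrow cells that give rise to platelet-forming megakaryocytes and to red cells. Wild-type (WT) mice gave 3 libraries and mice without Tmprss6 (Tmprss6-/-, here KO) gave another 3, and a library held the pooled cells of 3 mice. Tmprss6 is a liver protease that restrains hepcidin, so its loss leaves the animals short of iron. The series title names iron deficiency as the condition, which in this model is one of the whole animal and not of the progenitors alone. The labels used here give neither age nor sex. The sort selected cells negative for lineage antigens, Sca, Fc gamma receptors, CD105 and CD41 and positive for cKit and CD150.

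The chain passes electrons from complexes I and II through complex III and cytochrome c to complex IV, and ATP synthase, called complex V, uses the resulting proton gradient. Complexes I, II and III carry iron-sulfur clusters, and complexes II, III and IV and cytochrome c carry heme, so that their assembly depends on iron. Mitochondrial DNA encodes core subunits of complexes I, III, IV and V, and the nucleus encodes all other subunits, including every subunit of complex II. In the erythroid lineage the same mitochondria also make the heme of hemoglobin.

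Total counts per library ran from 13402209 to 22986837. Tmprss6 itself, a liver gene, had 0 to 5 counts in each library of either genotype, so its counts do not check the labels. All 11 markers of erythro-megakaryocytic progenitors had counts in every library, and their summed level was 7625 to 8982 CPM (counts scaled to library size) in 5 libraries and 6237 CPM in KO replicate 2. The sum was mostly Car1 (3971 to 6451 CPM) and hides differences between replicate numbers. Kit stood at 392, 822 and 1640 CPM in WT replicates 1, 2 and 3 and at 316, 578 and 1246 CPM in those of KO. Gata2 rose in the same order, while Klf1 stood at 468 to 693 CPM over the libraries. KO replicate 2 stood apart in markers of other cells. All 8 late erythroblast markers were highest there, with a sum of 5172 CPM against 132 to 370 CPM elsewhere, as were all 10 markers of eosinophils, basophils and mast cells (7591 against 43.0 to 744 CPM), all 9 of neutrophil precursors (3387 against 81.3 to 378 CPM) and all 8 of macrophages (2031 against 24.5 to 167 CPM). B and plasma cell markers summed to 1358 CPM in KO replicate 2 and 1092 CPM in KO replicate 3 against 45.2 to 173 CPM. Of 6 T and NK cell markers 5 were highest in KO replicate 2, among them Ccl5 at 25.5 CPM, while their sum, mostly of Nkg7, was 188 to 434 CPM over the libraries and 363 CPM there. Libraries of both genotypes with the same replicate number are called a pair below, though the labels do not say that they belong together. Results are given over all 6 libraries and over pairs 1 and 3. In sorted bulk cells, fewer cells of a type and less RNA per cell cannot be told apart, and the p-values measure only the spread between these pools.

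Several mitochondrial genes have near-identical copies on chromosome 1, and this limits how far their counts can be read. A stretch of mitochondrial DNA from the end of mt-Co1 to the start of mt-Nd4 lies in the nuclear genome as 7 annotated copies, between positions 24611535 and 24616197 on the minus strand of the GRCm38 build. The copies of mt-Co2, mt-Co3, mt-Atp6 and mt-Nd4l matched the mitochondrial gene at each of 681, 783, 678 and 294 aligned bases, and that of mt-Nd4 at each of 876. The copy of mt-Co1 matched at 486 of 492 bases. The copy of mt-Nd3 differed from the gene at 1 of 345 bases (T3C, counted from the first base of the transcript, with the mitochondrial base first). The 60-base stretches below show the case with no difference and the case with a single one, whose base is in capitals. They are read 5′ to 3′ from the GRCm38 reference, and the copies are shown on their minus strand.
mt-Co2, chrM:7323-7382: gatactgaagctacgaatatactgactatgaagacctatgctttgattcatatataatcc
Gm28661, chr1:24615196-24615255: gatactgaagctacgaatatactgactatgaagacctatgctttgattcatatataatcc
mt-Nd3, chrM:9459-9518: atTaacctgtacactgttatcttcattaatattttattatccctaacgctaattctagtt
Gm28438, chr1:24613060-24613119: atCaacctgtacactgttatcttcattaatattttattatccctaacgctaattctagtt

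In the identical pairs, counts were assigned to both gene and copy. From here on, 3 values of a genotype stand in the order of its replicate numbers. mt-Co2, the subunit of complex IV that receives electrons from cytochrome c, had 340, 270 and 69 counts in WT libraries and 203, 166 and 70 counts in KO libraries. Its copy Gm28661 had 398, 323 and 57 counts in WT and 207, 205 and 61 in KO, which was 45.2% to 55.3% of the pair's counts in a library. The copies took 53.8% to 59.3% of the pair for mt-Co3 and 56.8% to 62.7% for mt-Atp6. For mt-Nd3 they took 78.9% to 93.9%. In contrast, the partial copies of mt-Co1 and mt-Nd4 held 0.870% to 1.42% and 0.776% to 2.01% of their pairs' counts. The copy of mt-Nd4 spans 876 of that gene's 1378 bases. Why the shares of these copies were so far below those of the others was not tested. The copies' own transcription was not measured apart from the genes'.

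Levels of the mitochondrial mRNAs, as CPM per kilobase of transcript (RPKM, averaged over the 6 libraries), spanned 3 ranges. The highest were mt-Cytb, the only complex III subunit of mitochondrial DNA, at 1549 RPKM, the complex I subunit mt-Nd1 at 1538 RPKM and the catalytic complex IV subunit mt-Co1 at 942 RPKM. These 3 genes held 86.2% to 88.7% of all counts of the 13 mRNAs in each library. A middle range held the complex I subunits mt-Nd2 (146 RPKM), mt-Nd4 (140 RPKM), mt-Nd5 (117 RPKM) and mt-Nd6 (79.5 RPKM). Neighbours within these ranges differed by less than the spread between libraries, which for mt-Cytb ran from 624 to 2356 RPKM.

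The lowest range held the genes with copies. mt-Co3 averaged 39.4 RPKM, mt-Atp6 30.4 RPKM, mt-Co2 16.3 RPKM and mt-Nd3 1.60 RPKM, and mt-Nd4l had 0 to 5 counts. Of the 50-base words of these 5 genes, 98.0% to 100% occurred in another annotated transcript. The share was 0% for mt-Cytb, mt-Nd1 and mt-Nd6, 51.1% for mt-Co1 and 62.2% for mt-Nd4. With the counts of gene and copy added, mt-Co3 came to 89.5 RPKM, mt-Atp6 to 75.0 RPKM and mt-Co2 to 34.5 RPKM. By these sums mt-Co3 was above mt-Nd6 and mt-Atp6 close to it, and none of them came near mt-Cytb. The sums hold counted reads only. Reads that fit gene and copy equally may have been left out, which was not tested. The sums therefore do not settle the range of these genes. mt-Atp8, at 10.6 RPKM, was also in the lowest range. It overlaps mt-Atp6 and so lies at least partly within the stretch copied on chromosome 1, where no copy of it is annotated. The word search covered annotated transcripts only, so its share of 0% does not show that it has no copy. The treatment of reads that fit several places is not given in the sources used here. The levels of the genes in the lowest range, and those of mt-Co1 and mt-Nd4, therefore count as uncertain.

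**Figure D1:**
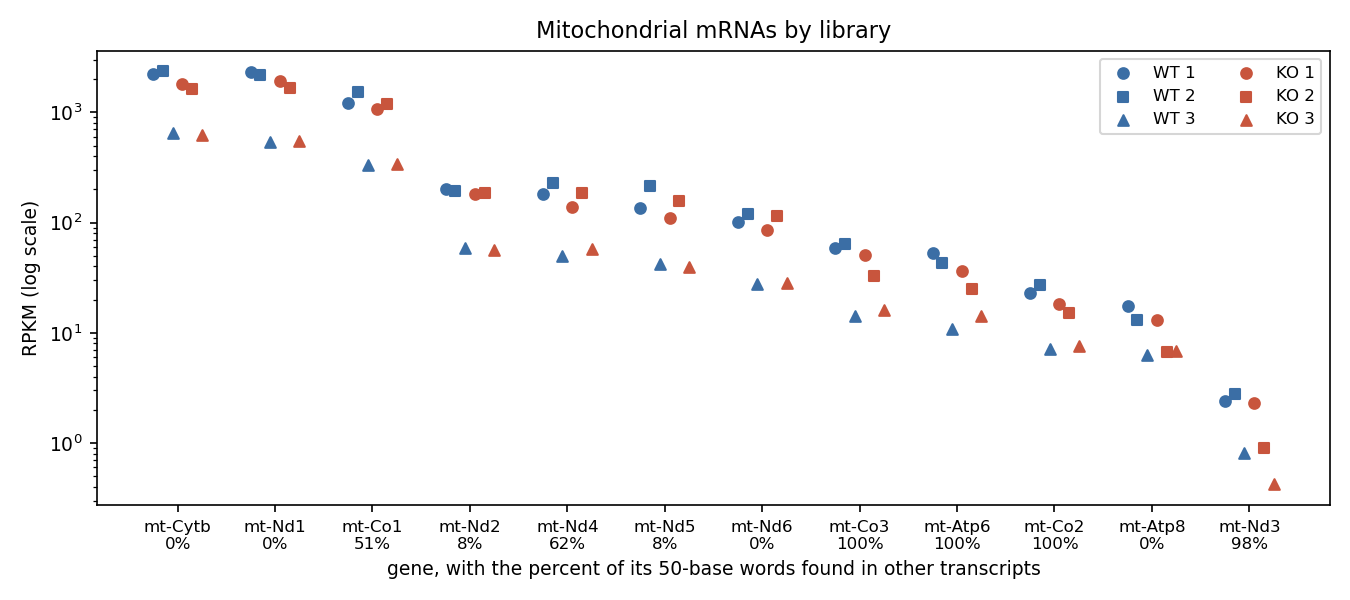
Level of 12 mitochondrial mRNAs in RPKM on a log axis, 1 point per library, ordered by mean level. WT is blue and KO red, shapes mark the replicate number, and the percentage under each gene is the share of its 50-base words found in other annotated transcripts. mt-Cytb, mt-Nd1 and mt-Co1 lie above all other genes within each library, replicate 3 is low in both genotypes, and mt-Nd4l (0 to 5 counts) is not drawn.

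The 13 mitochondrial mRNAs made up a small and variable share of the libraries. They held 0.709%, 0.851% and 0.208% of all counts in WT libraries and 0.566%, 0.658% and 0.205% of those in KO, so the genotypes overlapped and replicate 3 was lowest in both. The means were 0.589% ± 0.338 in WT and 0.477% ± 0.240 in KO (SD, n = 3). KO was below WT in 3 of 3 pairs of the same number. In pair 3 the 95% Wilson intervals overlapped, 0.205% to 0.210% in WT and 0.203% to 0.207% in KO, while in pairs 1 and 2 the counting error was far smaller than the difference (intervals of 0.706% to 0.713% against 0.563% to 0.570%, and of 0.847% to 0.856% against 0.654% to 0.662%). Intervals cover counting error only. The difference of the means, -0.113 percentage points, became 0.018 without WT replicate 2 and 0.023 without KO replicate 3.

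The 95 nuclear genes held 3.80%, 2.61% and 1.95% of counts in WT and 3.95%, 2.05% and 2.13% in KO. Their 95% Wilson intervals were narrow, at most 3.94% to 3.96% in KO replicate 1. KO was above WT in pairs 1 and 3 and below it in pair 2. The log2 ratio of summed mitochondrial to summed nuclear counts was -2.42, -1.61 and -3.23 in WT and -2.80, -1.64 and -3.38 in KO. In each of the 3 pairs the KO ratio was below that of WT. The mean difference was -0.18, against an SD within genotypes of 0.81 in WT and 0.89 in KO. Without WT replicate 2 the mean difference was 0.22 and without KO replicate 3 it was 0.20.

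**Figure D2:**
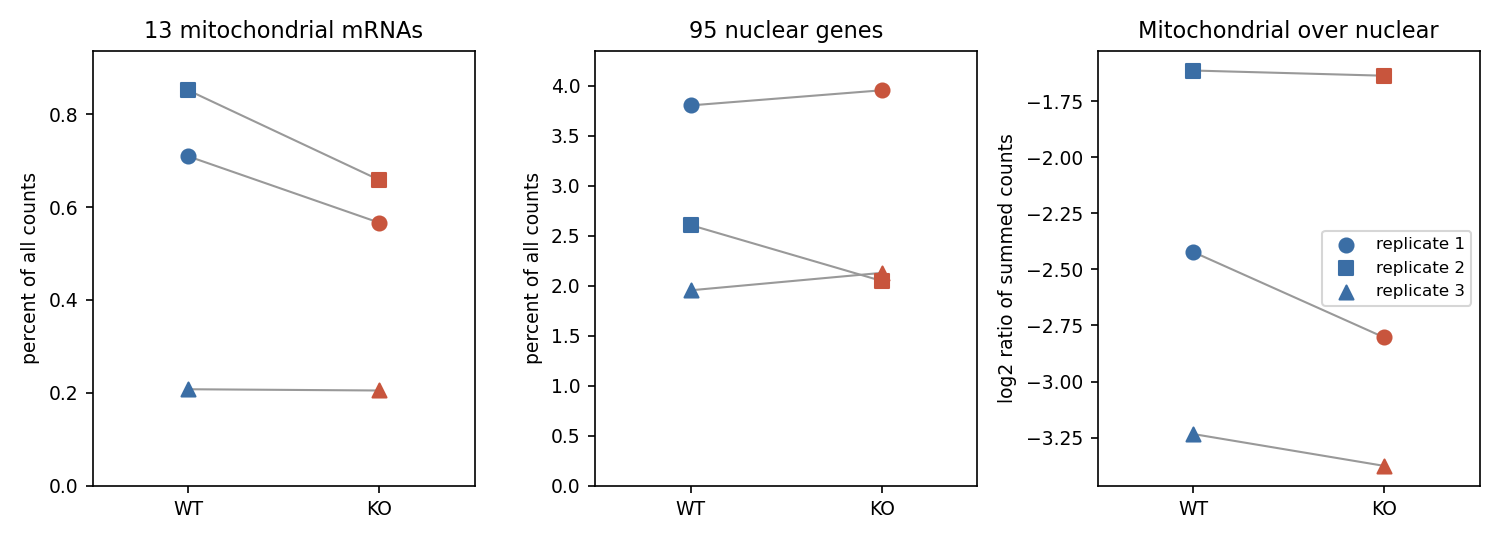
Share of all counts held by the 13 mitochondrial mRNAs (left) and the 95 nuclear genes (middle), in percent, and the log2 ratio of the 2 sums (right), by genotype. Lines join libraries of the same replicate number. The mitochondrial share is lower in KO in each pair, by least in pair 3 (0.208% and 0.205%), while the nuclear share is lower in KO in pair 2 only.

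No gene of the chain passed the test between genotypes. Over the 6 libraries edgeR's quasi-likelihood test called 0 of the 101 tested genes at an adjusted p of 0.05, as it called 0% of all 13453 genes tested. At an unadjusted p under 0.05 there were 0 of 101 and 234 of 13453 genes, and DESeq2 and limma voom also called 0 of the 101. Over pairs 1 and 3, fitted with a term for each pair (the replicate block), 0 of 101 were called against 0.862% of all genes (117 of 13572). In that fit 14 of 101 reached an unadjusted p under 0.05, a share close to the 13.2% over all genes. Of these 14, Cox6a2 was below 0, and above it were Ndufaf4, Ndufa10 and Ndufv1 of complex I, Sdha and Sdhb of complex II, Uqcrfs1, Uqcrc1 and Cyc1 of complex III, Cox5a of complex IV, Atp5a1, Atp5b and Atp5o of complex V, and Cycs. No tested gene of the chain had every KO library below every WT library (1.75% of all genes did) or every KO library above (2.27% did).

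The standard errors, which here only restate the test, differed between the fits. Standard errors of the 101 log2 fold changes were 0.26 to 1.11 over the 6 libraries and 0.087 to 0.99 over pairs 1 and 3. The fit of pairs 1 and 3 rests on 1 residual degree of freedom and borrows the spread from all genes. Replicate 2 of each genotype does not enter it.

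Over the 6 libraries, mitochondrial genes had a lower median log2 fold change than nuclear ones. This order turned when WT replicate 2 was left out and, narrowly, when KO replicate 1 was left out. These fits had no term for the pair, so the library of the same number stayed in unmatched. All 12 tested mitochondrial genes had log2 fold changes below 0 (-0.71 to -0.10, median -0.36), while 36 of 89 nuclear genes were above 0 (median -0.026) and the median of all genes was -0.0048. With the replicate block the medians were -0.29 and -0.052. Over pairs 1 and 3 they were -0.12 and 0.10, with 0 of 12 mitochondrial and 73 of 89 nuclear genes above 0, against 48.5% of all genes. A group of 5 mitochondrial genes with no or few shared words (mt-Nd1, mt-Nd2, mt-Nd5, mt-Nd6 and mt-Cytb), formed after the word counts were seen, had a median of -0.29 over the 6 libraries and -0.13 over pairs 1 and 3. It leaves out mt-Atp8, which shares no word with an annotated transcript but overlaps mt-Atp6, a gene of the copied stretch. It keeps mt-Nd5 and mt-Nd6, whose rows overlap each other. mt-Atp8 had a log2 fold change of -0.46 (SE 0.58), and -0.17 over pairs 1 and 3. With a correction for transcript length 2 of the 12, mt-Nd2 and mt-Nd6, were above 0 and the median was -0.23. Without WT replicate 2 the mitochondrial median was -0.066 (5 of 12 above 0) and the nuclear median -0.14, and without KO replicate 1 they were close, at -0.62 and -0.65. Without KO replicate 3 they were 0.0016 and 0.18.

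Within pairs the 2 genomes did not move as one. The median log2 difference of the 12 mitochondrial genes was -0.29, -0.49 and 0.029 in pairs 1, 2 and 3, with 0, 0 and 8 genes above 0. The group of 5 had a median of -0.043 in pair 3, with 2 above 0, and mt-Atp8 had a difference of 0.11. The nuclear median was 0.066, -0.36 and 0.14, with 65, 3 and 77 of 89 genes above 0, and the medians of all genes were -0.013, -0.0024 and -0.0095. The mitochondrial median was below the nuclear one in each pair. The 2 medians stood on opposite sides of 0 in pair 1 and both below it in pair 2. In pair 3 the nuclear median was above 0, while the side on which the mitochondrial genes stood differed between all 12 and the group of 5. Pair 2 holds the library with markers of other blood cells. The part of those cells in the values of pair 2 was not tested. The nuclear median over all libraries went from -0.65 without KO replicate 1 to 0.43 without WT replicate 1.

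The genotypes overlapped for each of the most abundant mitochondrial mRNAs. mt-Cytb (chromosome M, 14145 to 15288) stood at 2549, 2695 and 740 CPM in WT and 2062, 1873 and 714 CPM in KO, with KO lower in 3 of 3 pairs and the groups overlapping through the replicate 3 libraries. Its log2 fold change was -0.36 (SE 0.58, edgeR adjusted p = 1.00), and -0.18 (SE 0.094, edgeR adjusted p = 0.44) over pairs 1 and 3. mt-Co1 (5328 to 6872), which holds heme a and copper, stood at 1866, 2348 and 516 CPM in WT and 1651, 1834 and 521 CPM in KO. Its groups overlapped as well, with a log2 fold change of -0.24 (SE 0.64). mt-Nd1 (2751 to 3707), part of the membrane arm of complex I, stood at 2240, 2100 and 517 CPM in WT and 1851, 1598 and 527 CPM in KO, a log2 fold change of -0.29 (SE 0.64).

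The other complex I subunits of mitochondrial DNA were below 0 as well. mt-Nd5, a proton-pumping subunit, stood at 247, 393 and 77.5 CPM in WT and 200, 288 and 72.5 CPM in KO, lower in every pair. Its log2 fold change was -0.36 (SE 0.65). mt-Nd2 stood at 210, 201 and 60.9 CPM in WT and 188, 192 and 59.1 CPM in KO, which gave a log2 fold change of -0.10 (SE 0.58), and mt-Nd4 had a log2 fold change of -0.27. mt-Nd6, the one mRNA read from the other strand of mitochondrial DNA, had 201 to 1133 counts and a log2 fold change of -0.12. Its row overlaps that of mt-Nd5 and the library kits do not mark strand, so reads from the opposite strand may be among these counts. mt-Nd3, with 2 to 18 counts and a near-identical copy, had the lowest value of the 12, -0.71 (SE 0.79). None of these passed the test in either fit.

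By complex, no nuclear gene passed the test between genotypes over the 6 libraries. The median log2 fold change was 0.0067 for the 7 core genes of complex I, -0.048 for its 29 accessory genes and -0.027 for its 8 assembly factors. It was 0.033 for the 4 genes of complex II, 0.023 for 9 genes of complex III, -0.022 for 11 genes of complex IV and -0.0087 for 15 genes of complex V. Leaving out 1 library moved them widely, from -0.77 (without KO replicate 1) to 0.56 (without WT replicate 1) for complex IV and from -0.31 to 0.20 for complex I core genes under the same omissions. Summed over the complex, the level of complex V was 11648, 8791 and 6920 CPM in WT and 13062, 6588 and 7649 CPM in KO, and that of complex II was 3112, 2276 and 2177 CPM in WT and 3624, 1761 and 2384 CPM in KO. Both sums were above WT in pairs 1 and 3 and below it in pair 2. The sum of complex IV was 6676, 3164 and 2023 CPM in WT and 6633, 2608 and 2238 CPM in KO, above WT in pair 3 only, and that of complex III, 5834, 3347 and 2544 CPM in WT and 6601, 2607 and 2817 CPM in KO, followed complexes II and V.

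Over pairs 1 and 3 each complex had a median above 0. It was 0.15 for complex I core genes (7 of 7 above 0), 0.099 for accessory genes (23 of 29), 0.069 for assembly factors (6 of 8), 0.21 for complex II (4 of 4), 0.11 for complex III (9 of 9), 0.074 for complex IV (10 of 11) and 0.14 for complex V (11 of 15). The genes of a complex share their libraries, so these counts are not independent observations. In pair 2, which is left out here, 0 of 7 core, 0 of 29 accessory, 0 of 9 complex III, 0 of 11 complex IV and 0 of 15 complex V genes were above WT.

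**Figure D3:**
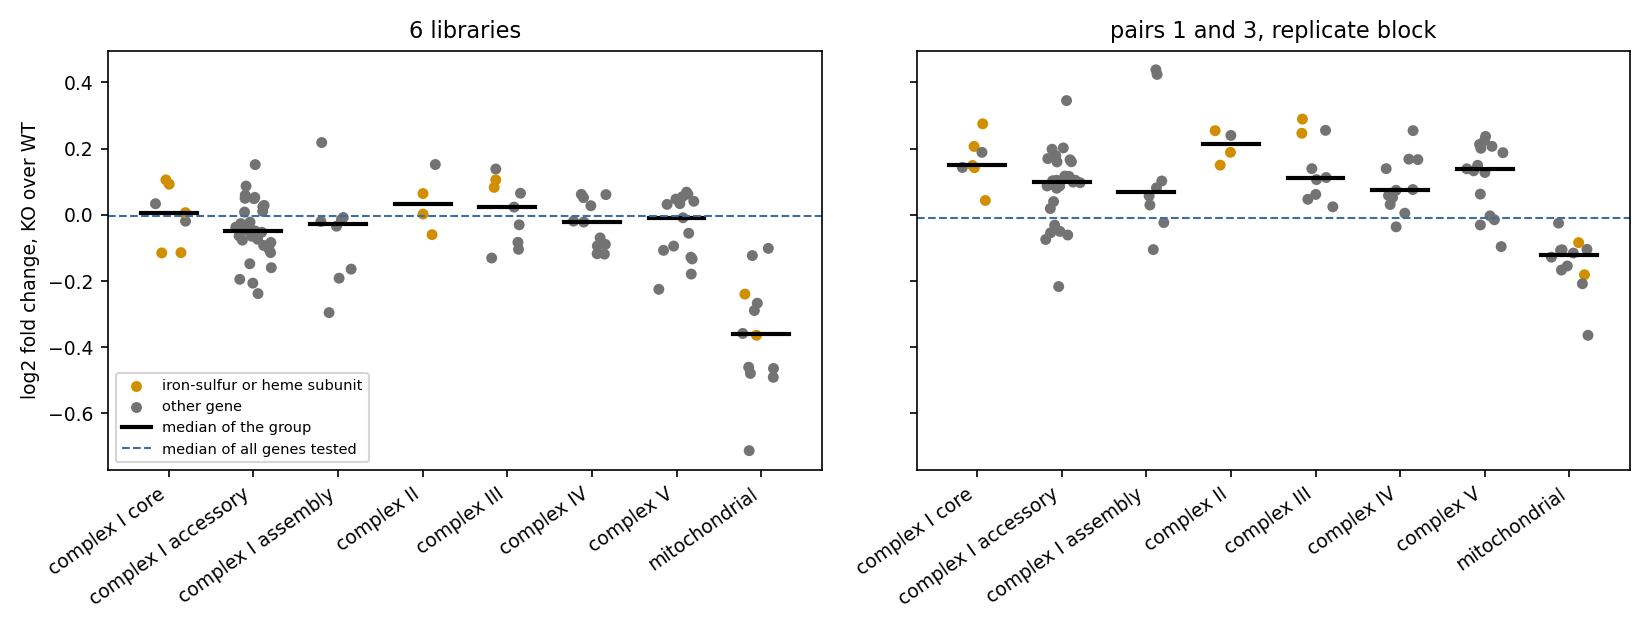
Log2 fold change of KO over WT for the nuclear genes of each complex and for the 12 tested mitochondrial genes, over 6 libraries (left) and over pairs 1 and 3 with the replicate block (right), 1 point per gene. Black bars are group medians, the dashed line is the median of all genes tested, and iron-sulfur or heme subunits are orange. The mitochondrial genes lie below the line in both panels, with medians of -0.36 and -0.12, and the nuclear medians lie on both sides of it on the left and above it on the right.

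Complex I, the entry point for electrons from NADH, held the 2 genes of smallest p over pairs 1 and 3. The assembly factor Ndufaf4 (chromosome 4, 24898083 to 24905001) stood at 119, 73.9 and 51.0 CPM in WT and 144, 62.9 and 76.9 CPM in KO, above WT in pairs 1 and 3 and below it in pair 2. Its log2 fold change was 0.22 (SE 0.43, edgeR adjusted p = 1.00) over the 6 libraries and 0.42 (SE 0.12, edgeR adjusted p = 0.13) over pairs 1 and 3. The accessory subunit Ndufa10 stood at 236, 262 and 225 CPM in WT and 316, 215 and 272 CPM in KO, with log2 fold changes of 0.15 and 0.35 (edgeR adjusted p = 1.00 and 0.15). At the other end, the assembly factor Ndufaf8 was lower in KO in 3 of 3 pairs (log2 fold change -0.30, SE 0.52), as were Ndufa7, Ndufb2, Ndufb3 and Ndufb4 and, outside the complexes, Atp5s, and the accessory subunit Ndufs4 in 2 of 3 (-0.24, SE 0.54). None passed the test.

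In complexes II to V each nuclear gene had a log2 fold change smaller than its standard error. Sdha, the flavin-bearing subunit of complex II, had a log2 fold change of 0.15, Uqcrc1, a core protein of complex III, of 0.14, and its partner Uqcrc2 of -0.10. In complex IV, Cox8a had 0.062 and Cox7b -0.12. In complex V, Atp5o, a subunit of the stalk, had 0.069 and the c-subunit gene Atp5g2 -0.22. Of the 89 nuclear genes tested, Sdha alone was above WT in 3 of 3 pairs, at 537, 732 and 1138 CPM in WT and 718, 766 and 1189 CPM in KO.

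The iron-sulfur subunits hold the clusters through which electrons pass. Of the 7 genes, 5 had a log2 fold change above 0 over the 6 libraries and none passed the test. Ndufv1, which accepts electrons from NADH, stood at 282, 294 and 278 CPM in WT and 385, 235 and 298 CPM in KO, which gave a log2 fold change of 0.11 (SE 0.28). Ndufs1, the largest subunit of complex I, stood at 207, 214 and 261 CPM in WT and 271, 190 and 265 CPM in KO (0.093 on the log2 scale, SE 0.27). In both, KO replicate 2 was the lowest library and KO replicate 1 the highest. Ndufv2, Ndufs7 and Ndufs8, the other cluster-bearing subunits of complex I, had log2 fold changes of -0.11, 0.0067 and -0.11.

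The cluster subunits of complexes II and III were also highest in KO replicate 1. Sdhb, which holds the clusters of complex II, stood at 577, 437 and 332 CPM in WT and 678, 326 and 403 CPM in KO, which gave a log2 fold change of 0.064 (SE 0.37). Uqcrfs1, the Rieske protein of complex III, stood at 387, 266 and 170 CPM in WT and 464, 209 and 213 CPM in KO (0.11 on the log2 scale, SE 0.44). Without pair 2 the log2 fold changes were 0.25 for Sdhb and 0.29 for Uqcrfs1 (SE 0.10 each, edgeR adjusted p = 0.26 and 0.22).

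The heme subunits of the nucleus gave like values. Cyc1, the cytochrome c1 of complex III, stood at 672, 501 and 335 CPM in WT and 837, 381 and 380 CPM in KO, which gave a log2 fold change of 0.083 (SE 0.43). Cycs, cytochrome c itself, stood at 476, 257 and 157 CPM in WT and 572, 210 and 201 CPM in KO. Its log2 fold change was 0.14 (SE 0.55), and 0.31 in pairs 1 and 3 (edgeR adjusted p = 0.20). Sdhc and Sdhd, which hold the heme of complex II in the membrane, had log2 fold changes of 0.0023 and -0.060. The 2 heme subunits of mitochondrial DNA, mt-Cytb and mt-Co1, had values of -0.36 and -0.24 as given above, with standard errors larger than the values.

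**Figure D4:**
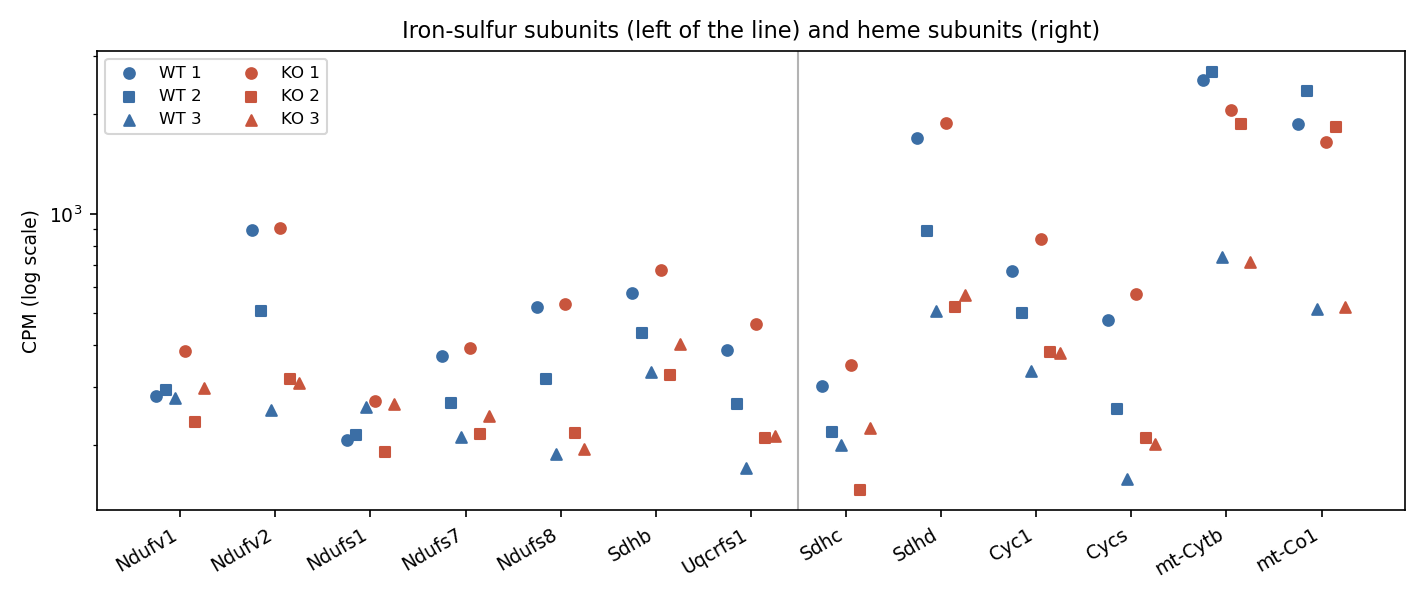
Level of the 7 iron-sulfur subunits (left of the line) and 6 heme subunits (right) in CPM on a log axis, 1 point per library. WT is blue and KO red, and shapes mark the replicate number. WT and KO overlap for each gene, and for most nuclear genes replicate 1 of both genotypes is highest.

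Set against the nuclear subunits without a cofactor of iron, the 11 nuclear iron-sulfur and heme subunits had a median log2 fold change of 0.064 against -0.030 over the 6 libraries, with 8 of 11 and 26 of 65 above 0. In pairs 1 and 3 alone the medians were 0.21 and 0.10, with 11 of 11 and 54 of 65 above 0. Leaving out a library turned this order in 2 cases, 0.32 against 0.49 without WT replicate 1 and 0.15 against 0.20 without KO replicate 3. In pairs 1, 2 and 3 the cofactor group had medians of 0.23, -0.40 and 0.18 against 0.057, -0.34 and 0.14 for the others. The 2 groups also differed in transcript length, with median principal transcripts of 1520 and 763 nt, and over all 89 nuclear genes the log2 fold change of pairs 1 and 3 had a Spearman correlation of 0.36 with that length. With the length correction over the 6 libraries the medians were 0.097 and 0.039. That correction used the longest annotated transcript of each gene, not the principal one. How much of the difference between the groups goes with length was not tested further.

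For the nuclear genes, differences between replicate numbers were larger than those between genotypes. Nuclear genes of the chain were higher in replicate 1 than in replicate 3 by a median of 1.49 log2 units in WT (85 of 89 genes) and 1.37 in KO (87 of 89), where the median over all genes was 0.02 in each genotype. Replicate 3 also differed from the other libraries in sex, with 351 (WT) and 175 (KO) counts of Xist, an RNA of female cells, and at most 1 count of the Y-linked Ddx3y, while the replicates numbered 1 and 2 had at least 872 counts of Ddx3y and at most 1 of Xist. Sex, sort and library preparation cannot be told apart here. Ndufa4, a small subunit of complex IV, shows the pattern at 1223, 523 and 259 CPM in WT and 1157, 414 and 277 CPM in KO.

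These differences were ordered by transcript length. Across the 89 nuclear genes the Spearman correlation of the difference with the length of the principal transcript was -0.57 in WT and -0.56 in KO, and across all genes it was -0.57 and -0.59. The genes share libraries, so these values are descriptions. The chain's transcripts are short, with a median principal length of 955 nt against 2940 nt over all genes tested. The exceptions were long transcripts. Sdha (2900 nt) and the ATP synthase subunit gene Atp5a1 (2471 nt) were higher in replicate 3 in both genotypes, and Ndufs1 (2661 nt) and Atp5sl (2387 nt) in WT. Other long transcripts did not follow this order, and Cycs (3123 nt) and Ndufaf4 (3632 nt) were higher in replicate 1, by 1.60 and 1.22 log2 units in WT. Atp5b, the catalytic subunit of ATP synthase, stood at 2969, 3109 and 2789 CPM in WT and 3842, 2279 and 3002 CPM in KO.

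**Figure D5:**
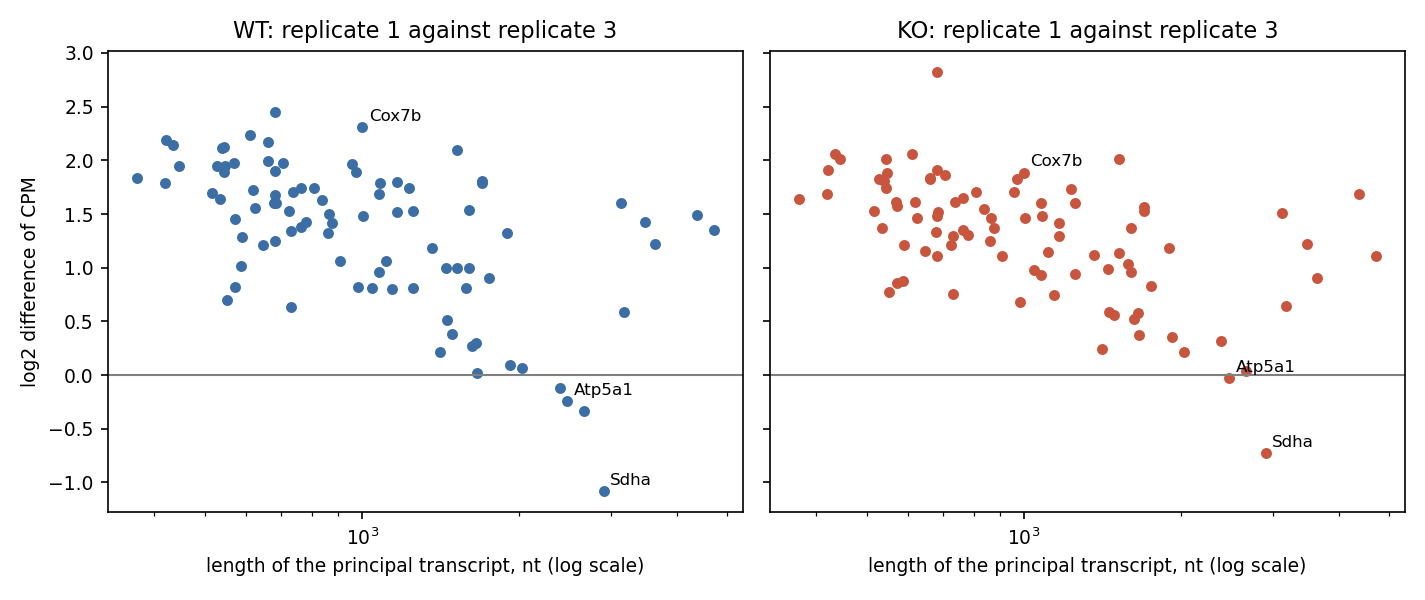
Log2 difference between replicate 1 and replicate 3 against the length of the principal transcript (log axis, nt) for the 89 nuclear genes, WT left and KO right, 1 point per gene. Most points lie above 0, with medians of 1.49 and 1.37. Short transcripts lie highest, and Sdha lies below 0 in both genotypes.

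Isoforms of complex IV were those of most tissues, with 1 exception. The liver-type Cox6a1 stood at 640 RPKM in WT and the muscle-type Cox6a2 at 5.53 RPKM. Cox4i1 stood at 276 to 928 CPM over the libraries, while its lung isoform Cox4i2 had 0 to 5 counts. The muscle isoform Cox7a1 had 1 to 15 counts, Cox8b 0 or 1, Cox8c 0 to 3, Ndufa4l2 0 to 2 and Cox7b2 0 in each library, so these are at or near the floor of 3 counts (0.138 to 0.220 CPM). Cox6a2 stood at 7.93, 2.00 and 1.35 CPM in WT and 4.40, 16.0 and 0.514 CPM in KO, highest in KO replicate 2. Its log2 fold change was 0.89 (SE 1.11) over the 6 libraries and -1.05 (SE 0.46, edgeR adjusted p = 0.33) over pairs 1 and 3, a change of direction that comes with leaving out that library. The gene lies within the span of Itgad, so its counts are uncertain.

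The exception was Cox6b2, known as the testis isoform of Cox6b. It stood at 119, 75.8 and 58.8 CPM in WT and 116, 53.9 and 63.4 CPM in KO, far above the floor in each library. Per length it reached 144 RPKM in WT beside 785 RPKM for the usual isoform Cox6b1. Its row (chromosome 7, 4751792 to 4753094) overlaps no other row of the table, and 0% of its 50-base words occur in other annotated transcripts. It had a log2 fold change of -0.12 (SE 0.40) and the genotypes overlapped.

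The c subunit, which forms the rotor ring of complex V, is made from 3 nuclear genes. Per length, Atp5g3 stood at 544 RPKM in WT, Atp5g1 at 110 RPKM and Atp5g2 at 65.0 RPKM. Over the 6 libraries they ran from 283 to 850 RPKM for Atp5g3 and from 68.1 to 182 RPKM for Atp5g1, and Atp5g2 reached 76.1 RPKM, so Atp5g3 was apart from both others, which overlapped. The value of Atp5g1 rests on an annotated transcript of 4715 nt, against 862 nt for Atp5g3 and 753 nt for Atp5g2. Atp5g1 stood at 818, 420 and 321 CPM in WT and 860, 338 and 398 CPM in KO, and Atp5g2 at 55.4, 55.7 and 35.7 CPM in WT and 57.3, 34.5 and 33.9 CPM in KO. Atp5g3 stood at 705, 457 and 244 CPM in WT and 733, 348 and 317 CPM in KO. In CPM Atp5g3 thus overlapped Atp5g1, and the gap between them per length rests on the annotated lengths.

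Within complexes the levels per length were spread widely. On principal transcript lengths, added after the values were seen because the longest transcript of some genes is an unusual one, the 7 nuclear core genes of complex I ran from 88.1 RPKM (Ndufs1) to 328 RPKM (Ndufs8). Its accessory genes ran from 4.61 RPKM (Ndufb2, whose principal transcript is annotated at 4371 nt) to 791 RPKM (Ndufa1) and its assembly factors from 19.0 to 78.4 RPKM. Complex II ran from 75.7 RPKM (Sdhc) to 821 RPKM (Sdhd), complex III from 136 RPKM (Uqcrq) to 1193 RPKM (Uqcr11), complex IV from 114 RPKM (Cox5a) to 1053 RPKM (Ndufa4) and complex V from 62.1 RPKM (Atp5g2) to 1565 RPKM (Atp5b). Assembly factors had the lowest median, 53.8 RPKM, against 175 RPKM or more for the groups of subunits. Of the 108 genes, 47 overlap another row of the table, and 14 of the 95 nuclear genes share over 20% of their 50-base words with other transcripts, among them Cycs (28.5%), Atp5o (34.9%) and Ndufaf2 (80.9%), so single levels are uncertain.

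The promoters of the nuclear genes were searched for the cores of motifs bound by NRF1, GABP and the ERR family, factors known to drive respiratory genes. RefSeq windows of 300 bases on GRCm38.p6, 250 before and 50 after a start, were found for 78 of the 95 genes, in 84 windows. The NRF1 core GCATGCGC occurred, on either strand, in 13 of 84 windows (15.5%) against 2.71% of all 32851 windows. The GABP core CCGGAAG occurred in 18 windows (21.4%, against 8.86%) and the ERR core AAGGTCA in 8 (9.5%, against 4.72%). Overlapping matches were counted, and a match is a description of letters only. The windows of all genes were not matched to those of the chain in base composition or expression. For illustration, the 250 bases before the start are printed for the 2 genes with this core that had the smallest p over pairs 1 and 3, Ndufaf4 and Cycs, with motif letters in capitals. In Ndufaf4 the capitals hold a forward and an overlapping reverse match. Its window held 3 matches, and the other lies in the 50 bases after the start, which are not printed.
Cycs, chr6:50566570-50566819, minus strand: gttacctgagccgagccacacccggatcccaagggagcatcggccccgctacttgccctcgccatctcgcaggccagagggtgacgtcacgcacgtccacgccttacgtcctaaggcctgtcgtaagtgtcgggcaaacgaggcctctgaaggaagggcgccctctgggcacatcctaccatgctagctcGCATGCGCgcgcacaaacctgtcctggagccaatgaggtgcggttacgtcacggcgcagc
Ndufaf4, chr4:24897833-24898082, plus strand: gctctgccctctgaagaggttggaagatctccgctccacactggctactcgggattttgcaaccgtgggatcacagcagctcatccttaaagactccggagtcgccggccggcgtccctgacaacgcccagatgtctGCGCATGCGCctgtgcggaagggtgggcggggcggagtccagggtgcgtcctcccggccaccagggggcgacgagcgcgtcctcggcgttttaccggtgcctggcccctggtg

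Genes that build or regulate the chain but lie outside the rule were read from lists beside it, and none passed the test in either fit. Of 20 tested genes of mitochondrial transcription and RNA handling, 10 had log2 fold changes above 0 over the 6 libraries (median -0.021), beside 49.3% of all genes. Tfam, which packages mitochondrial DNA and starts its transcription, stood at 141, 117 and 83.3 CPM in WT and 143, 74.6 and 85.7 CPM in KO. Tfb1m, a methyltransferase of mitochondrial ribosomal RNA, was lower in KO in 3 of 3 pairs (log2 fold change -0.40, SE 0.37), with overlapping groups whose lowest libraries stood at 15.2 CPM (WT) and 11.5 CPM (KO).

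Assembly factors outside the rule had medians of -0.053 for 17 genes of complexes I to III, -0.060 for 20 genes of complex IV and heme a synthesis, and -0.030 for 4 genes of complex V. The genes of smallest p in these lists were Foxred1 (0.17, SE 0.30), Cmc2 (0.36, SE 0.36) and Atpaf2 (0.15, SE 0.28). Of 8 tested regulators of mitochondrial biogenesis 4 were above 0 (median 0.0079). Nrf1, whose motif was searched above, stood at 101, 115 and 135 CPM in WT and 125, 144 and 147 CPM in KO, higher in KO in 3 of 3 pairs with overlapping groups. Tfeb, a regulator of lysosomal genes, had the smallest p of the list (log2 fold change 1.14, SE 0.51, edgeR adjusted p = 1.00), at 4.55 to 6.64 CPM in WT and 6.24, 20.8 and 9.18 CPM in KO. Its highest value was in KO replicate 2, and over pairs 1 and 3 the log2 fold change was 0.35.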

How the data were processed

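Per the labels' protocols, sorted mouse MEP were profiled with the SMART-Seq v4 and Nextera XT kits, and neither kit marks strand. The deposited values were whole-number read counts per Ensembl gene. The submitters' processing notes list FastQC 0.11.5, STAR 2.5.3a, edgeR and 2 builds, GRCm38.p3 and GRCh38.p3, without their roles. The counter, its strand setting and its treatment of multi-mapped reads were not given in the sources used here. The table held 52459 named rows and 0 sample columns beyond the 6 used.

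Counts were filtered with filterByExpr of edgeR 4.0.16 (minimum count 10, minimum total 15), scaled by TMM and compared with its quasi-likelihood test, two-sided, with Benjamini-Hochberg adjustment over all genes tested and a threshold of 0.05. R 4.3.3 was used. Standard errors (SE) of edgeR fits are the absolute log2 fold change divided by the square root of the test's F statistic. They restate that test and are no separate measure of precision. CPM use TMM-scaled totals, and a prior count of 2 was added for log2 values of single libraries. RPKM divide CPM by the longest transcript of GENCODE vM21, which holds 52319 of the 52459 IDs. Groups came from the genotype labels. Deviations from group means correlated at 0.53, 0.16 and 0.63 for the libraries numbered 1, 2 and 3. The numbers were taken as pairs on this basis and not from the labels. Libraries of different numbers were not correlated, so it was not tested whether matched numbers agree better than unmatched ones. Alternatives were the replicate block, pairs 1 and 3, DESeq2 1.42.0, voom of limma 3.58.1, other scalings, no filter, a lowess length correction and leaving out each library. The length correction used the longest transcript, and the fits that left out a library had no replicate block. The scripts were tested on simulated data. Genes, lists and tests were chosen with earlier results of these data known. The naming rule took each iron-sulfur, heme and mitochondrial gene, isoforms, the c-subunit genes, the gene of smallest p in each direction per complex (Atp5o, the highest of complex V, in place of Atp5a1) and the 2 of smallest p per outside list; not each is reported.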

Additional observations from a re-analysis of the deposited data

Results flagged for a closer look

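The 7 nuclear copies of mitochondrial genes on chromosome 1, which lie outside the genes described above, held 579 counts in the library where they were lowest (WT replicate 3) and 3521 in the library where they were highest (WT replicate 1), above the floor of 3 counts. They came to 1.49% to 2.44% of the counts of the 13 mitochondrial mRNAs. Whether these reads came from the copies or from the mitochondrial genes was not tested. With 3 libraries per genotype, no test for a single outlying library was run.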

How the results depend on the processing

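No gene of the chain was called under any alternative run, and whether depth or the number of libraries limited the calls was not tested. Over pairs 1 and 3 with the replicate block, edgeR called 117 genes of the whole table, and DESeq2 called 6 over the 6 libraries; the main design called 0. Genes of the chain above 0, 36 of 101 over the 6 libraries, numbered 73 over pairs 1 and 3, 55 with the length correction and 3 (without KO replicate 1) to 89 (without WT replicate 1) when a library was left out. The replicate block over all 6 libraries changed no call. It gave -0.0043 for Ndufs7 and -0.063 for Sdhc. The 522 other values of single genes kept their direction, while 86 turned, 65 of them when a library was left out; the cause was not tested. Over pairs 1 and 3 the log2 fold change was 0.14 for Ndufv2, 0.044 for Ndufs8, 0.15 for Sdhd, 0.11 for Uqcrc2, 0.077 for Cox7b, 0.036 for Cox6b2 and -1.05 for Cox6a2. Ndufs7 was at -0.0014 with voom, -0.016 on total counts and -0.0088 with no filter, and Sdhc at -0.062, -0.031 and -0.015. With the length correction mt-Nd2 was at 0.082 and mt-Nd6 at 0.14, and with the replicate block and that correction they were at 0.0072 and 0.0070, Cox7b at 0.037 and Sdhc at -0.061. The level of Ndufa4 in WT was 542 RPKM on its longest and 1095 RPKM on its principal transcript, a length added after the values were seen. Leaving out 1 library at a time, log2 fold changes were, for Ndufv1 -0.10 to 0.26, Ndufv2 -0.83 to 0.42, Ndufs1 -0.0043 to 0.24, Ndufs7 -0.31 to 0.25, Ndufs8 -0.74 to 0.32, Sdhb -0.30 to 0.28. Under the same step they were, for Uqcrfs1 -0.38 to 0.43, Sdhc -0.38 to 0.26, Sdhd -0.93 to 0.50, Cyc1 -0.41 to 0.34, Cycs -0.54 to 0.66, mt-Co1 -0.66 to 0.17. Next came mt-Nd1 -0.71 to 0.090, mt-Nd2 -0.49 to 0.27, mt-Nd4 -0.69 to 0.13, mt-Nd5 -0.82 to 0.21, mt-Nd6 -0.54 to 0.27, Sdha -0.12 to 0.49. Further values were, for Uqcrc1 -0.18 to 0.35, Uqcrc2 -0.64 to 0.27, Ndufs4 -0.83 to 0.27, Ndufaf4 -0.22 to 0.60, Ndufaf8 -0.94 to 0.18, Cox8a -0.29 to 0.29. The last were, for Cox7b -0.91 to 0.68, Atp5o -0.63 to 0.61, Cox6a2 -0.61 to 2.05, Cox6b2 -0.53 to 0.21, Foxred1 -0.068 to 0.35, Atpaf2 -0.036 to 0.29.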
